A study of Mus musculus with 45 samples.

Results

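The data compared here are 6 arrays of mice killed at 0 h after chronic intermittent ethanol (CIE) and 12 arrays of air-exposed mice (Ctrl) killed later, 6 at 72 h and 6 at 7 d, which are called late Ctrl below. The sample titles chose these 18 of the 45 arrays in the series. The 6 Ctrl arrays at 0 h served as a further comparison. Each array held nucleus accumbens RNA of 1 adult male C57BL/6J mouse. All mice went through 4 cycles in inhalation chambers, each of 4 days at 16 h per day, with 7 days between cycles. CIE mice were injected with 1.6 g/kg ethanol plus 1 mmol/kg pyrazole ahead of every cycle and then breathed vapor of 10 to 13 mg ethanol per l of air. Ctrl mice had saline in place of ethanol but were given pyrazole at that dose too, so no group is free of this alcohol dehydrogenase inhibitor. CIE 0 h and Ctrl 0 h mice came directly out of their last chamber session, whereas late Ctrl mice had rested in between. Against late Ctrl alone, ethanol and time since the chamber therefore cannot be told apart, and the 3 groups were read side by side. The questions were which 0 h differences remained against rested air mice and which came from the 0 h air mice themselves.

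The nucleus accumbens is a striatal region of reward and motivation, built mostly of GABAergic medium spiny neurons. In such tissue, genes such as Fos and Arc are switched on within minutes of neuronal firing and fade within hours. Corticosterone, released under stress, acts through the glucocorticoid receptor on genes such as Fkbp5, Tsc22d3 and Plin4, and secretory load in the endoplasmic reticulum (ER) induces chaperones such as Hspa5. Interferon induces MHC genes, which present peptides to T cells.

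All values are log2 expression values per probeset, and a change is the difference of 2 group means on that scale. Late Ctrl is the average of the 72 h and 7 d means. A probeset passed, rose or fell at an adjusted p of 0.01 or less by limma over 45037 probesets. Array medians lay between 6.942 and 6.965. Markers of medium spiny neurons were detected at a mean level of 11.45 to 12.2 in CIE 0 h, 11.84 to 12.14 in Ctrl 0 h and 11.77 to 12.18 in late Ctrl, and 0 of the 22 measured passed in any of the comparisons, although 21 of them were below 0 in CIE 0 h against each control (median -0.16 against late Ctrl and -0.19 against Ctrl 0 h). Some arrays stood apart. The 15 markers of cortical pyramidal neurons averaged 9.64 to 10.07 in CIE replicates 5, 67 and 72 and 8.35 to 8.94 in the other 3 CIE arrays, against 8.23 to 9.44 in Ctrl 0 h and 8.17 to 9.45 in late Ctrl. The same 3 CIE arrays had the lowest medium spiny neuron levels (11.57, 11.7 and 11.45), and without them the median change of those markers was 0.055 against late Ctrl and 0.031 against Ctrl 0 h. Ctrl 0 h replicate 20 was high in myeloid markers (9.32, the other 5 at 8.53 to 8.71) and in choroid plexus and ependymal markers (6.99, the other 5 at 5.88 to 6.23). Counts are therefore also given without these arrays where they move. The share of other cell types in these differences was not tested, and in whole tissue fewer cells of a type and less RNA per cell cannot be told apart.

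Against late Ctrl, 1662 probesets passed in CIE 0 h (3.69% of those tested), 954 higher (2.12%) and 708 lower (1.57%), with a median size of 0.34. They covered 1195 genes. Against Ctrl 0 h, 717 probesets passed (1.59%). Ctrl 0 h has 6 arrays and late Ctrl 12, so a change of the same size passes less easily against Ctrl 0 h. Ctrl 0 h itself differed from late Ctrl in 49 probesets (0.109%), 35 of them higher (0.0777%) and 14 lower (0.0311%). Between Ctrl 7 d and Ctrl 72 h, limma passed 0 probesets at this threshold, although 2462 had an unadjusted p below 0.05 and 4 passed with array weights. The choice of late group still mattered: in CIE 0 h, 1480 probesets passed against Ctrl 72 h alone and 550 against Ctrl 7 d alone. All 6 CIE 0 h arrays lay outside the range of all 12 late Ctrl arrays in 381 probesets (0.846%).

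Of the 717 differences between CIE 0 h and Ctrl 0 h, 543 (75.7%) also passed against late Ctrl in the same direction, 338 higher and 205 lower. These made up 32.7% of the 1662. Their median size was 0.39 against Ctrl 0 h and 0.36 against late Ctrl, whereas Ctrl 0 h and late Ctrl differed in them by a median of 0.052. Only 6 (0.837%) were called as coming from the 0 h air mice, with Ctrl 0 h passing against late Ctrl in the opposite direction and CIE 0 h not passing. Not passing does not show that CIE 0 h was level with late Ctrl. The other 168 (23.4%) passed against Ctrl 0 h alone, with a median size of 0.35. In these, the median size against late Ctrl was 0.21 in CIE 0 h and 0.14 in Ctrl 0 h. How far each 0 h group contributed to them was not tested. None passed against both controls in opposite directions. Ctrl 0 h differed from late Ctrl in 49 probesets. In 28 of them CIE 0 h also passed against late Ctrl in the same direction, 21 above it and 7 below. The comparisons share arrays, since the change of CIE 0 h from late Ctrl is the sum of the other 2 changes. The counts describe how the calls divide and carry no test. Without CIE replicates 5, 67 and 72, 448 of the 45037 probesets passed against late Ctrl, 358 of them among the 1662. Against Ctrl 0 h 234 passed, and 168 passed against both controls. That fit has fewer CIE 0 h arrays and fewer calls over all probesets. Its list counts below therefore cannot be set against the shares given for all arrays, and a lost call need not mean a smaller change. All 1662 kept their sign.

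**Figure D1:**
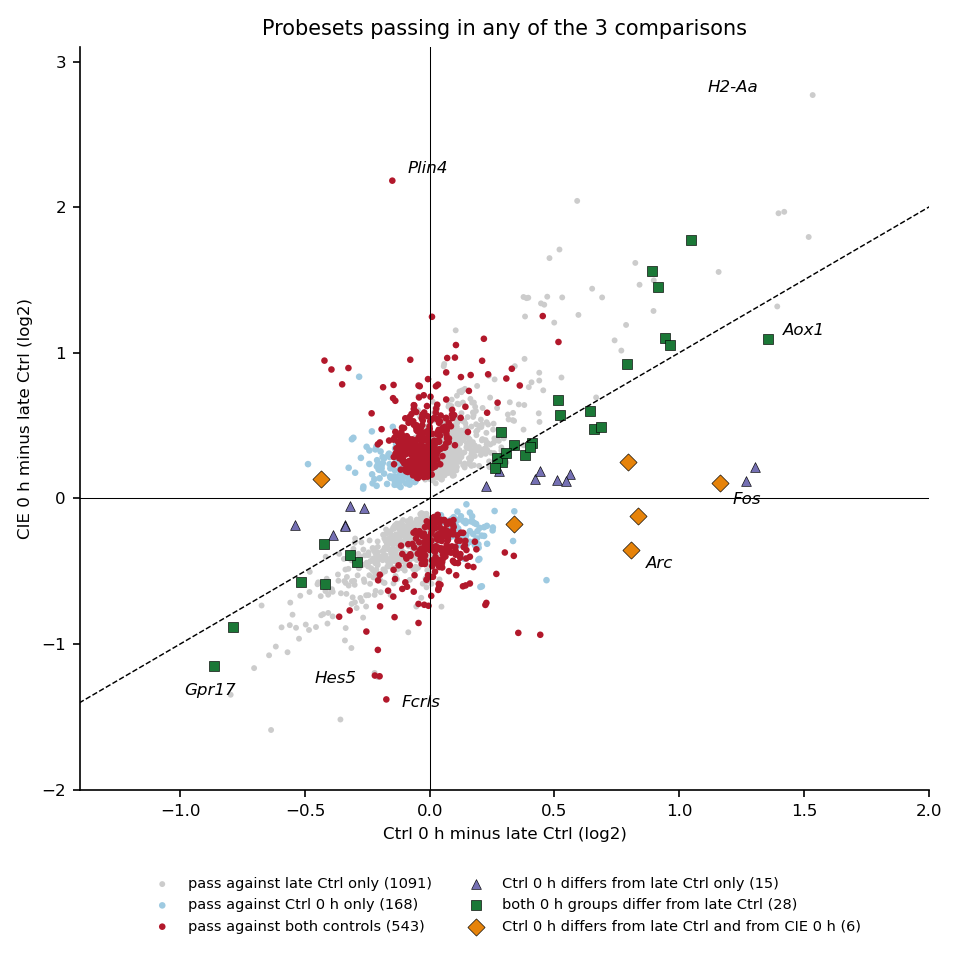
Change of Ctrl 0 h from late Ctrl (x axis, log2) and change of CIE 0 h from late Ctrl (y axis, log2), with a point for every probeset that passed in any of the 3 comparisons, coloured by which ones; on the dashed line both 0 h groups changed equally. The 543 probesets that passed against both controls cluster near 0 on the x axis. The 28 in which both 0 h groups passed against late Ctrl in the same direction lie along the dashed line.

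Genes that respond to glucocorticoids made up the clearest group to remain against rested air mice. Of the 22 measured, 17 rose against late Ctrl and none fell. With each gene at its brightest probeset, as in all gene lists here, 3.03% of 18193 genes rose and 1.99% fell (5.02% in all). The list's median change was 0.57, against 0.011 over all genes. Against Ctrl 0 h 10 rose (1.28% of all genes rose and 1.93% passed in either direction), and between Ctrl 0 h and late Ctrl the list had a median change of 0.052, with only Mt1 and Mt2 passing. The mean level of the list was above all 12 late Ctrl arrays in 5 of 6 CIE 0 h arrays. Of the 22, 15 still rose when CIE replicates 5, 67 and 72 were left out.

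Plin4 (GRCm38.p6 chr17:56100587-56109948), a coat protein of lipid droplets, was the member with the largest change. It measured 8.21, 9.51 and 10.78 (lowest, median and highest) in CIE 0 h, 6.59, 7.20 and 7.55 in Ctrl 0 h, and 6.17, 7.26 and 8.02 in late Ctrl. Every CIE 0 h array was above every control array, and both control groups overlapped. The change was 2.18 against late Ctrl (SE 0.298, adjusted p = 3.12e-06), or 4.54-fold, and 2.33 against Ctrl 0 h (SE 0.345, adjusted p = 3.87e-05). Ctrl 0 h differed from late Ctrl by -0.15 (95% interval -0.75 to 0.45). Fkbp5, a co-chaperone that restrains the glucocorticoid receptor, measured 10.03, 10.65 and 10.94 in CIE 0 h, 9.74, 9.95 and 10.26 in Ctrl 0 h, and 9.69, 9.97 and 10.22 in late Ctrl. All CIE 0 h arrays but replicate 72 were above the late Ctrl range, and the change was 0.62 (SE 0.0887, adjusted p = 7.82e-06) against late Ctrl and 0.59 against Ctrl 0 h.

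Cdkn1a, the cell-cycle inhibitor p21, measured 9.13, 10.04 and 10.89 in CIE 0 h, 8.76, 9.07 and 9.44 in Ctrl 0 h, and 8.67, 8.85 and 9.29 in late Ctrl. It rose by 1.10 (SE 0.159, adjusted p = 8.39e-06), with CIE replicates 5, 17 and 26 highest. The same 3 mice were highest in Plin4 and in Arrdc2, an arrestin-domain protein, which measured 7.77, 8.96 and 9.97 in CIE 0 h, 7.31, 7.62 and 7.94 in Ctrl 0 h, and 7.02, 7.66 and 8.34 in late Ctrl. Arrdc2 rose by 1.25 against late Ctrl (SE 0.235, adjusted p = 0.000448) and by 1.24 against Ctrl 0 h, although CIE replicates 67 and 72 lay within the late Ctrl range. Zbtb16, a zinc finger transcription factor, differed less from rested than from 0 h air mice, by 0.78 (adjusted p = 0.000446) and by 1.13 (adjusted p = 5e-05). It no longer passed against late Ctrl without replicates 5, 67 and 72 (0.58, adjusted p = 0.103). Sult1a1, a phenol sulfotransferase, showed the opposite order, with 1.25 (adjusted p = 2.29e-08) against late Ctrl and 0.80 (adjusted p = 0.00135) against Ctrl 0 h.

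Other members were near equal against both controls. Map3k6, a stress-activated kinase, changed by 0.70 against late Ctrl and by 0.69 against Ctrl 0 h, and Gpd1, glycerol-3-phosphate dehydrogenase, by 0.55 and by 0.46. Both were taken from the list after their values were seen. Tsc22d3, the anti-inflammatory protein GILZ, rose by 0.49 (SE 0.104, adjusted p = 0.00184) and by 0.54. Sgk1, a kinase that regulates ion transport, passed against late Ctrl (0.59, SE 0.148, adjusted p = 0.00826) but not against Ctrl 0 h (0.42, adjusted p = 0.185), and its call against late Ctrl held in 7 of 18 fits with 1 array left out. With hybridization sets, batches of arrays inferred from exactly equal values, as a block, 5 of the 22 rose against Ctrl 0 h, and Cdkn1a, Arrdc2, Sult1a1 and Tsc22d3 no longer passed there (adjusted p between 0.0132 and 0.0419). Mt1 and Mt2, which also belong to this list, behaved differently and are described below with the genes that moved in both 0 h groups.

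**Figure D2:**
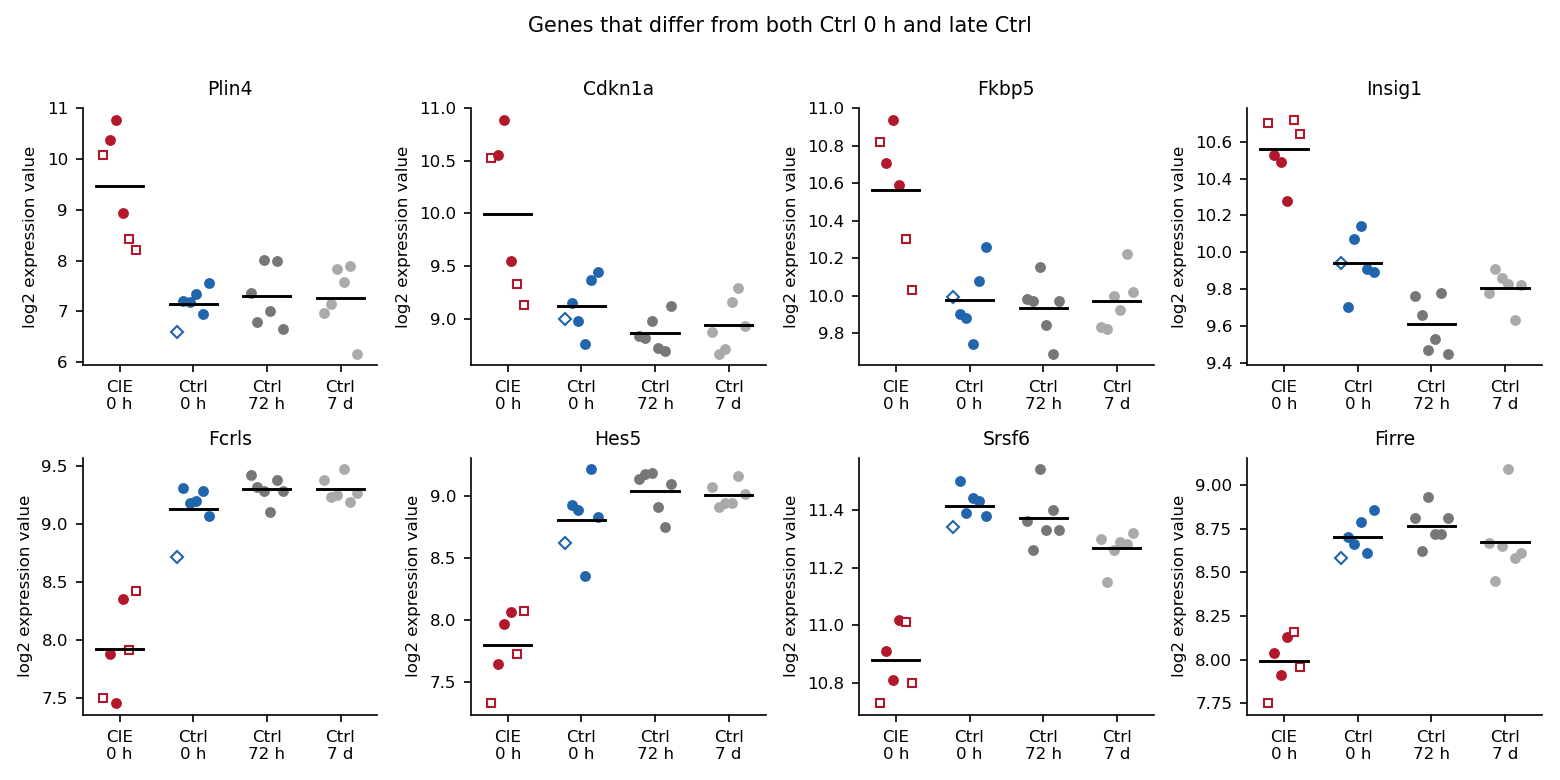
Log2 expression value (y axis) of 8 genes in each array of CIE 0 h, Ctrl 0 h, Ctrl 72 h and Ctrl 7 d. Black bars are group means, open squares are CIE replicates 5, 67 and 72, and the open diamond is Ctrl 0 h replicate 20; every CIE 0 h array lies above all late Ctrl arrays for Plin4 and Insig1 and below them for Fcrls, Hes5, Srsf6 and Firre.

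Some energy and lipid genes also remained. Of 21 insulin, FoxO and energy-sensing genes, 8 rose against late Ctrl and none fell (median 0.19), 5 rose against Ctrl 0 h, and 0 passed between Ctrl 0 h and late Ctrl. The list's mean level in all 6 CIE 0 h arrays was above all 12 late Ctrl arrays. Txnip, which binds thioredoxin and restrains glucose uptake, changed by 0.61 (adjusted p = 3.33e-05), the lipoprotein lipase inhibitor Angptl4 by 0.59 (adjusted p = 2.28e-05) and Hif3a, a hypoxia-inducible factor subunit, by 0.43 (adjusted p = 3.88e-05). The 28 cholesterol and fatty acid synthesis genes had 8 rises and no fall against late Ctrl (median 0.19) and 5 rises against Ctrl 0 h, and all 6 CIE 0 h arrays were again above late Ctrl in mean level. Without CIE replicates 5, 67 and 72, 4 of the 21 energy genes rose against late Ctrl and 2 against Ctrl 0 h, and 3 and 1 of the 28 cholesterol genes. The median of the energy list was then 0.21 against each control. Leaving out CIE replicate 5 alone gave 5 and 2 energy genes and 5 and 3 cholesterol genes.

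Insig1, which holds the sterol sensor SCAP in the ER and is itself a sterol-regulated gene, led the cholesterol list. It measured 10.28, 10.58 and 10.72 in CIE 0 h, 9.70, 9.93 and 10.14 in Ctrl 0 h, and 9.45, 9.77 and 9.91 in late Ctrl. CIE 0 h did not overlap with either control group. The change was 0.85 (SE 0.0843, adjusted p = 3.96e-09) against late Ctrl and 0.62 (adjusted p = 9.21e-05) against Ctrl 0 h. Squalene synthase (Fdft1, 0.35), the sterol reductase Tm7sf2 (0.47) and Hsd17b7 (0.40) passed against both controls, whereas Cyp51, the lanosterol demethylase, passed against late Ctrl only (0.31, and 0.07 against Ctrl 0 h). Tm7sf2 did not pass against late Ctrl without CIE replicates 5, 67 and 72 (0.30, adjusted p = 0.0262). Insig1 then still passed against late Ctrl (0.73, adjusted p = 4.84e-05) but not against Ctrl 0 h (0.49, adjusted p = 0.022).

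Among 16 purine genes, 4 rose and 1 fell against late Ctrl. Ada, adenosine deaminase, measured 5.79, 6.58 and 7.72 in CIE 0 h, 5.19, 5.43 and 5.71 in Ctrl 0 h, and 5.11, 5.82 and 6.50 in late Ctrl. Only CIE replicates 5, 17 and 26 were above late Ctrl, and the change of 0.90 (SE 0.207, adjusted p = 0.00396) missed the threshold with the hybridization sets as a block (adjusted p = 0.011). Xdh, xanthine oxidoreductase, rose by 0.61 (adjusted p = 2.9e-05) and Upp2, a uridine phosphorylase, by 0.78, while Adk, adenosine kinase, fell by 0.19. Of 14 lipid droplet genes other than Plin4, 3 rose (Plin5, Pnpla2 and Pnpla3, by 0.31 to 0.39) and 0 passed against Ctrl 0 h. Neither Upp2 (0.61, adjusted p = 0.032) nor any of these 3 passed without CIE replicates 5, 67 and 72, and with 1 array left out the call of Pnpla2 held in 6 of 18 fits and that of Plin5 in 10.

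Falls that remained were led by Fcrls (chr3:87250736-87263765), an Fc receptor-like gene of resting microglia. It measured 7.45, 7.89 and 8.42 in CIE 0 h, 8.71, 9.19 and 9.31 in Ctrl 0 h, and 9.10, 9.28 and 9.47 in late Ctrl. CIE 0 h lay wholly below both control groups. The change was -1.38 (SE 0.0935, adjusted p = 1.69e-13), or 0.384-fold, against late Ctrl and -1.21 (adjusted p = 1.46e-09) against Ctrl 0 h, and Ctrl 0 h was 0.17 below late Ctrl without passing (95% interval -0.36 to 0.015). Of 14 homeostatic microglia markers, 5 fell against late Ctrl and none rose (median -0.24), also without CIE replicates 5, 67 and 72. Olfml3, a secreted microglial protein, fell by 0.72, the ADP receptor P2ry12 by 0.58, its relative P2ry13 by 0.58 and the lysophospholipid receptor Gpr34 by 0.64. Of these, P2ry13 (-0.39, adjusted p = 0.0316) and Gpr34 (-0.42, adjusted p = 0.0156) did not pass against Ctrl 0 h. Without Ctrl 0 h replicate 20, Gpr34 passed there (-0.49, adjusted p = 0.00424) and P2ry13 did not (-0.44, adjusted p = 0.0202). P2ry12 did not pass against Ctrl 0 h without CIE replicates 5, 67 and 72 (-0.36, adjusted p = 0.0951), whereas Olfml3 and Fcrls then did. Of 19 general myeloid and complement markers 1, the tetraspanin gene Cd53, fell (-0.26), a call that held in 5 of 18 fits with 1 array left out. General myeloid markers averaged 8.46 to 8.79 in CIE 0 h, against 8.48 to 8.94 in late Ctrl.

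Hes5, a repressor that Notch signaling induces in neural progenitors and astrocytes, had the largest fall after Fcrls among named genes that passed against both controls. It measured 7.33, 7.85 and 8.07 in CIE 0 h, 8.35, 8.85 and 9.21 in Ctrl 0 h, and 8.75, 9.04 and 9.18 in late Ctrl. No CIE 0 h array reached any control array. The change was -1.22 (SE 0.111, adjusted p = 6.03e-10) against late Ctrl and -0.996 (SE 0.128, adjusted p = 4.01e-06) against Ctrl 0 h. The 300 bases around its start are shown because Hes5 is the textbook target of the Notch partner RBPJ, whose core GTGGGAA, searched on both strands, is in capitals. Promoter windows here are 300 bases from RefSeq around a gene's start in GRCm38.p6.
Hes5 (chr4:154960673-154960972, plus strand): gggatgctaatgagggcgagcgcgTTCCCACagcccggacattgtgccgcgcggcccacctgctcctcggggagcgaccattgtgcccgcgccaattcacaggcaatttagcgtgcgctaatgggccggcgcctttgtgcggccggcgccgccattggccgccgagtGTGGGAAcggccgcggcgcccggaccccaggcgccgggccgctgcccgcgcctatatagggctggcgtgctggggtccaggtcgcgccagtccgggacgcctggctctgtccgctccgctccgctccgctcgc
The 2 matches do not overlap, and 6.38% of all 32851 promoter windows hold this heptamer. In the Notch and neural progenitor list 3 of the 17 members with a window hold it.

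Of the 22 Notch and progenitor genes, 7 fell against late Ctrl and none rose (median -0.12), 2 fell against Ctrl 0 h (Hes5 and Nr2e1), and 2 fell in Ctrl 0 h against late Ctrl. All 6 CIE 0 h arrays had a lower mean level of the list than any late Ctrl array. Nr2e1, the orphan receptor that maintains neural stem cells, fell by 0.63 (adjusted p = 4.66e-05) and by 0.66 against Ctrl 0 h. Nrarp, a feedback inhibitor of Notch, and Fzd2, a Wnt receptor, had -0.57 and -0.59 against late Ctrl but only -0.06 and -0.17 against Ctrl 0 h. They were the 2 that fell in Ctrl 0 h, and both calls were lost when the sets were a block (adjusted p = 0.0262 for Nrarp and 0.0129 for Fzd2), that of Nrarp also in 13 of 18 fits with 1 array left out. Leaving out CIE replicates 5, 67 and 72, 2 members fell, and neither Nr2e1 (-0.39, adjusted p = 0.0738) nor Nrarp (-0.31, adjusted p = 0.191) passed. Fabp7, a fatty acid binding protein of progenitors and astrocytes, passed against both controls (-0.92 and -0.66).

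A few splicing genes fell by small amounts. Of 44, 7 fell and none rose against late Ctrl (median -0.077, 40 below 0), and 7 fell against Ctrl 0 h. Clk1, a kinase of SR proteins, measured 11.81, 11.97 and 12.10 in CIE 0 h, 12.29, 12.39 and 12.45 in Ctrl 0 h, and 12.18, 12.33 and 12.48 in late Ctrl. CIE 0 h again lay below all controls (-0.36, SE 0.0463, adjusted p = 9.72e-07). Srsf6, an SR splicing factor, changed by -0.44 (adjusted p = 5.63e-09) at 1 of its 4 probesets. Firre, a long noncoding RNA of the X chromosome, changed by -0.73 (adjusted p = 7.49e-09) at 3 of 4 probesets, and Kif1b, a kinesin, by -0.52 (adjusted p = 0.00176) at 1 of 7. Rprd2, a regulator of RNA polymerase II, rose by 0.76 (adjusted p = 3.34e-07) at 1 of 8. Without CIE replicates 5, 67 and 72, 2 of the 44 splicing genes fell against late Ctrl. Kif1b did not pass against late Ctrl in that fit (-0.55, adjusted p = 0.0282) but did against Ctrl 0 h (-0.82, adjusted p = 0.00276). Srsf6, Firre and Rprd2 then passed against both controls at these probesets. The study had singled out splicing genes on these arrays, so this count is not independent evidence.

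The probesets called as coming from the 0 h air mice, 2 to 9 with 1 array left out, were mostly immediate early genes. Of the 6 probesets, 5 were Fos, Arc, Nr4a1, Nr4a3 and Egr1, all lower in CIE 0 h than in Ctrl 0 h. The sixth, higher in CIE 0 h than in Ctrl 0 h, has no single gene symbol. Fos, a subunit of the AP-1 transcription factor, measured 8.16, 8.65 and 9.36 in CIE 0 h, 9.65, 9.81 and 9.88 in Ctrl 0 h, and 8.14, 8.64 and 9.13 in late Ctrl. The 6 Ctrl 0 h arrays lay above all others, while CIE 0 h and late Ctrl overlapped. CIE 0 h was at 0.10 relative to late Ctrl (95% interval -0.26 to 0.47, adjusted p = 0.826) and from Ctrl 0 h by -1.06 (SE 0.21, adjusted p = 0.00164), and Ctrl 0 h was above late Ctrl by 1.16 (SE 0.182, adjusted p = 0.000316).

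Nr4a1, an orphan nuclear receptor induced by activity, measured 9.82, 10.39 and 10.92 in CIE 0 h, 10.97, 11.36 and 11.59 in Ctrl 0 h, and 10.21, 10.50 and 10.90 in late Ctrl. Ctrl 0 h again stood above every other array, by 0.83 from late Ctrl (SE 0.122, adjusted p = 8.02e-05), and CIE 0 h was at -0.12 (95% interval -0.37 to 0.13). Arc, a protein of synaptic plasticity, measured 7.80, 8.31 and 8.92 in CIE 0 h, 9.35, 9.55 and 9.70 in Ctrl 0 h, and 8.32, 8.72 and 9.37 in late Ctrl. Here 3 CIE 0 h arrays were below the late Ctrl range, and the change of -0.36 did not pass (95% interval -0.67 to -0.047, adjusted p = 0.163). The rise of Arc in Ctrl 0 h of 0.81 (adjusted p = 0.00624) lost its call in 10 of the fits with 1 array left out (highest adjusted p = 0.0298). Egr1, a zinc finger transcription factor, was at -0.18 in CIE 0 h against late Ctrl (95% interval -0.30 to -0.053, adjusted p = 0.0657), and Ctrl 0 h was above late Ctrl by 0.34 (adjusted p = 0.00294). Nr4a3, a receptor of the same family as Nr4a1, was at 0.25 against late Ctrl (adjusted p = 0.157), with Ctrl 0 h above it by 0.80 (adjusted p = 1.08e-05). With the hybridization sets as a block, the calls of Arc (adjusted p = 0.0233) and Egr1 (adjusted p = 0.0171) in Ctrl 0 h were lost, as was that of Nr4a3 between the 0 h groups (adjusted p = 0.0161). Without CIE replicates 5, 67 and 72, Fos was at -1.14 (adjusted p = 0.0118) and Nr4a3 at -0.57 (adjusted p = 0.0463) against Ctrl 0 h.

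The promoter windows of Fos, Nr4a1 and Nr4a3 are shown because these 3 genes moved together in the 0 h air mice and activity acts on such genes through CREB. Capitals mark TGACG, the core of its cAMP response element, or its complement CGTCA.
Fos (chr12:85473640-85473939, plus strand): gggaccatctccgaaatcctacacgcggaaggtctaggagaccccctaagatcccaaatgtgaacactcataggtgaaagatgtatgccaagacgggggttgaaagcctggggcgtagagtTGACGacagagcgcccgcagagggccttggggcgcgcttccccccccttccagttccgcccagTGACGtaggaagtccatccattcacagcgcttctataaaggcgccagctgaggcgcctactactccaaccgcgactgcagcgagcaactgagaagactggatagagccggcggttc
Nr4a1 (chr15:101266596-101266895, plus strand): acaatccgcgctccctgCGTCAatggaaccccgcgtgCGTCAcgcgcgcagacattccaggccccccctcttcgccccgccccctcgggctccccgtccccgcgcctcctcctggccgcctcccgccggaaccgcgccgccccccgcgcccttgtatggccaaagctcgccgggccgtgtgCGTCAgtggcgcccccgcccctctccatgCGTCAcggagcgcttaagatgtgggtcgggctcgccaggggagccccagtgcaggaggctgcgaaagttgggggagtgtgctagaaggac
Nr4a3 (chr4:48045055-48045354, plus strand): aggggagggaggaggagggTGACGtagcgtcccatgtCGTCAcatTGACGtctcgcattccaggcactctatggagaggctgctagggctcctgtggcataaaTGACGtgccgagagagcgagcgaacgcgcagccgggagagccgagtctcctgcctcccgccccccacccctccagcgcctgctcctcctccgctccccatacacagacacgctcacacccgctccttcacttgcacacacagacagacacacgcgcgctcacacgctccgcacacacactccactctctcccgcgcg
Fos holds 2 matches, Nr4a1 4 and Nr4a3 4, with no overlaps. The pentamer stands in 20.8% of all promoter windows and in 18 of the 23 immediate early genes with a window. The full element TGACGTCA stands in 1.79% of all windows and in none of these 3. A part of CREB in the changes was not tested.

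Over the list of 30 immediate early genes, Ctrl 0 h was above late Ctrl in 8 and below in none (median 0.31, against -0.003 over all genes, where 0.159% passed, 0.11% higher and 0.0495% lower). CIE 0 h was below Ctrl 0 h in 6 and above in 2 (median -0.23, with 0.654% of all genes lower and 1.28% higher), and against late Ctrl 2 rose and none fell (median 0.10). The list's mean level was 8.22 to 8.49 in CIE 0 h, 8.52 to 8.68 in Ctrl 0 h and 8.13 to 8.44 in late Ctrl. Egr2, Junb and Fosl2, added after their values were seen, were also higher in Ctrl 0 h than in late Ctrl (1.30, 0.51 and 0.56, adjusted p = 0.00409, 0.00469 and 0.00409). CIE 0 h was below Ctrl 0 h in them without passing (-1.09, -0.39 and -0.39, adjusted p = 0.0164, 0.0367 and 0.0539). With the hybridization sets as a block, 3 of the list passed in Ctrl 0 h against late Ctrl and 4 were lower in CIE 0 h than in Ctrl 0 h. The calls of Egr2 (adjusted p = 0.0171), Junb (adjusted p = 0.0284) and Fosl2 (adjusted p = 0.0171) were among those lost. Npas4, a neuron-specific activity factor, lay between, at -1.03 against Ctrl 0 h (adjusted p = 0.00276), -0.56 against late Ctrl (adjusted p = 0.054) and 0.47 for Ctrl 0 h against late Ctrl (adjusted p = 0.699). Fosb passed in none of the comparisons.

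Jun and Maff went the other way. Jun, the partner of Fos in AP-1, measured 9.44, 9.67 and 9.99 in CIE 0 h, 8.64, 8.98 and 9.52 in Ctrl 0 h, and 8.80, 9.15 and 9.32 in late Ctrl. All CIE 0 h arrays were above late Ctrl, by 0.63 (SE 0.109, adjusted p = 0.000135), and Ctrl 0 h was level with late Ctrl (-0.011, 95% interval -0.23 to 0.21). Maff, a small Maf transcription factor, rose by 0.59 (adjusted p = 0.0004). Jun did not pass without CIE replicates 5, 67 and 72 (0.54, adjusted p = 0.0226).

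**Figure D3:**
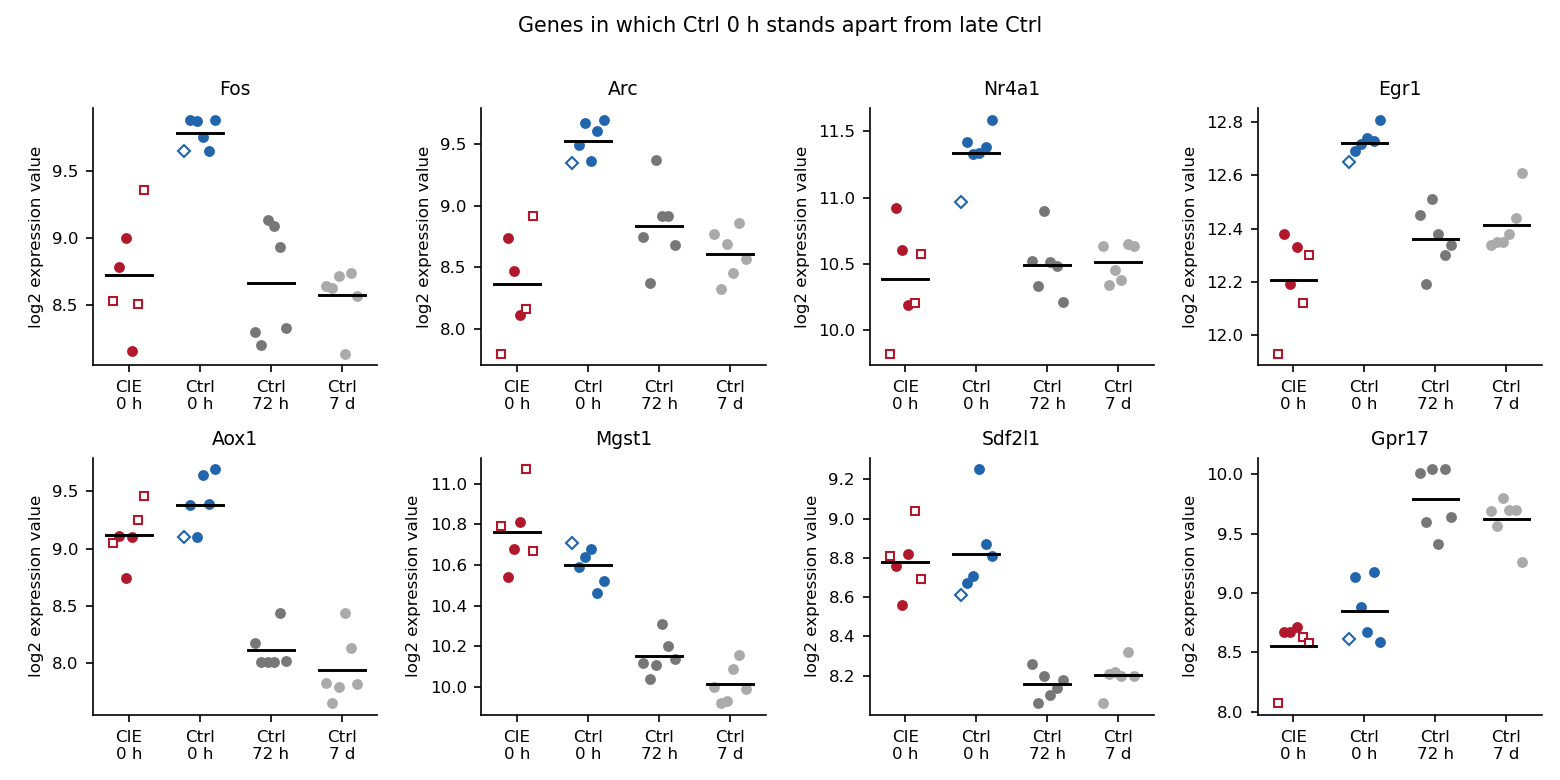
Log2 expression value (y axis) in each array of CIE 0 h, Ctrl 0 h, Ctrl 72 h and Ctrl 7 d, for 4 immediate early genes (Fos, Arc, Nr4a1, Egr1) and for 4 genes that differed from late Ctrl in both 0 h groups (Aox1, Mgst1, Sdf2l1, Gpr17). Black bars are means, with the symbols of the array plot of Plin4; Ctrl 0 h alone is raised in Fos, whereas both 0 h groups are above late Ctrl in Aox1 and below it in Gpr17.

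The 28 probesets that moved in both 0 h groups covered 19 genes, and none of them passed between CIE 0 h and Ctrl 0 h. Aox1 (chr1:58029809-58106410), an aldehyde oxidase, measured 8.74, 9.11 and 9.46 in CIE 0 h, 9.10, 9.39 and 9.69 in Ctrl 0 h, and 7.65, 8.01 and 8.44 in late Ctrl. Both 0 h groups were above every late Ctrl array and overlapped with each other. The change was 1.09 in CIE 0 h (SE 0.106, adjusted p = 2.42e-09) and 1.36 in Ctrl 0 h (SE 0.106, adjusted p = 4.21e-11), and CIE 0 h was at -0.26 against Ctrl 0 h (95% interval -0.51 to -0.015, adjusted p = 0.264). Mgst1, a membrane-bound glutathione transferase, differed from late Ctrl by 0.68 in CIE 0 h and 0.52 in Ctrl 0 h, and Gstm1, a cytosolic one, by 0.57 and 0.52. Dmp1, a matrix phosphoprotein, was at 1.56 in CIE 0 h and 0.89 in Ctrl 0 h and did not pass between them (0.67, adjusted p = 0.0466). Its call in Ctrl 0 h was lost in 11 of 18 fits with 1 array left out and when the sets were a block (adjusted p = 0.0171).

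A minority of ER chaperones rose in the 0 h groups. Of 24, 7 rose in CIE 0 h and 4 in Ctrl 0 h against late Ctrl, 0 passed between the 0 h groups, and the median change was 0.094 in CIE 0 h and 0.086 in Ctrl 0 h against late Ctrl and -0.018 between the 0 h groups. The list's mean level was 10.35 to 10.51 in CIE 0 h, 10.36 to 10.52 in Ctrl 0 h and 10.24 to 10.30 in late Ctrl, so no 0 h array overlapped with late Ctrl. Sdf2l1, an ER chaperone cofactor, measured 8.56, 8.79 and 9.04 in CIE 0 h, 8.61, 8.76 and 9.25 in Ctrl 0 h, and 8.06, 8.20 and 8.32 in late Ctrl. Both 0 h groups were wholly above late Ctrl, CIE 0 h by 0.60 (SE 0.0683, adjusted p = 7.51e-08) and Ctrl 0 h by 0.64 (SE 0.0683, adjusted p = 1.6e-07), and differed from each other by -0.04 (95% interval -0.20 to 0.12). Manf, a secreted ER stress protein, was above late Ctrl by 0.30 in CIE 0 h and 0.38 in Ctrl 0 h. Hspa5, the main ER chaperone BiP, added after its values were seen, was above it by 0.25 in CIE 0 h (adjusted p = 0.00414) and 0.29 in Ctrl 0 h (adjusted p = 0.00994). Sel1l, of the ER degradation machinery, differed: it passed against both controls (0.27 and 0.23) at a probeset other than its brightest. Without CIE replicates 5, 67 and 72, 2 of the 24 rose in CIE 0 h, with the sets as a block 2 rose in Ctrl 0 h, and without those 3 arrays Hspa5 did not pass in CIE 0 h (0.24, adjusted p = 0.0561).

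The metallothioneins Mt1 and Mt2, which bind zinc and respond to metals and glucocorticoids, were even more alike at 0 h. Mt2 measured 13.00, 13.06 and 13.24 in CIE 0 h, 13.03, 13.06 and 13.11 in Ctrl 0 h, and 12.57, 12.71 and 12.89 in late Ctrl. Neither 0 h group overlapped with late Ctrl, with a change of 0.37 in CIE 0 h (SE 0.0443, adjusted p = 2.95e-07) and 0.34 in Ctrl 0 h (SE 0.0443, adjusted p = 8.25e-06), and the 0 h groups differed by 0.027 (95% interval -0.076 to 0.13). For Mt1, added after its values were seen, the changes were 0.28 and 0.27. The highest value on any array was 14.496.

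Promoter windows of both kinds are shown for the sequence elements known in such genes. Calr passed in CIE 0 h (0.21, adjusted p = 0.00349) but not in Ctrl 0 h (0.24, adjusted p = 0.0133). In Hspa5 and Calr, the ER chaperone calreticulin, capitals mark the ER stress element on either strand, a CCAAT box and a CCACG box at a fixed distance, and in Mt1 and Mt2 the metal response core, TGCACNC or TGCGCNC.
Hspa5 (chr2:34771840-34772139, plus strand): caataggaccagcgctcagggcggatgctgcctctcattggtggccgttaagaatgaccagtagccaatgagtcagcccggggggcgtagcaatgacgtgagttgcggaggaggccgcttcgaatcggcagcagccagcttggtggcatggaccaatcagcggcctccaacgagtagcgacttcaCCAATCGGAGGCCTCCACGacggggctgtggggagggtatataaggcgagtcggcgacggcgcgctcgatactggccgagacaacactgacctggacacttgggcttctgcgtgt
Calr (chr8:84846882-84847181, minus strand): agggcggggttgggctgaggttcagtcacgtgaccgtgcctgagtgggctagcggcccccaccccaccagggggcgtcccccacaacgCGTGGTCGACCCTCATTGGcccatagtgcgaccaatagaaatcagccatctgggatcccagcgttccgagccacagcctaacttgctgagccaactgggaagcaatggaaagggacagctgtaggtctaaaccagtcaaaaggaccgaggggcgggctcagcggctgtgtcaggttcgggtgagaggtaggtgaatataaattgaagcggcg
Mt1 (chr8:94178839-94179138, plus strand): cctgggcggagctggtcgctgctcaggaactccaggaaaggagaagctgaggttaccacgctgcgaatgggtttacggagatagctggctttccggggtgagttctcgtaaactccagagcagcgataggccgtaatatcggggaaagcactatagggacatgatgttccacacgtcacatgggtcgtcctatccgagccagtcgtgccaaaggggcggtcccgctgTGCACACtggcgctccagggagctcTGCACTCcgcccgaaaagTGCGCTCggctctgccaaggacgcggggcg
Mt2 (chr8:94172368-94172667, plus strand): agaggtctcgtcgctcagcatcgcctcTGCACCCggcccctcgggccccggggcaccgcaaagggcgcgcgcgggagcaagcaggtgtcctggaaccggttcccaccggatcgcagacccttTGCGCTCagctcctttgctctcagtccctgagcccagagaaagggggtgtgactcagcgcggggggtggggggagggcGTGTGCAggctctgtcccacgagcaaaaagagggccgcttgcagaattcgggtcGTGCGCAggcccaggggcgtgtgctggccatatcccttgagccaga
The ER stress element stands in 0.119% of all promoter windows and in 7 of the 22 ER list members with a window, Calr, Canx, Creld2, Dnajc3, Hsp90b1, Hspa5 and Pdia6. The metal response core, with 3 matches in Mt1 and 4 in Mt2, stands in 25.7%.

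Genes low in both 0 h groups included Gpr17, a receptor of differentiating oligodendrocytes. It measured 8.07, 8.65 and 8.71 in CIE 0 h, 8.59, 8.77 and 9.18 in Ctrl 0 h, and 9.26, 9.69 and 10.04 in late Ctrl. Late Ctrl was wholly above both 0 h groups. The change was -1.15 (SE 0.115, adjusted p = 5.11e-09) in CIE 0 h and -0.86 (SE 0.115, adjusted p = 1.11e-05) in Ctrl 0 h. Gm11627, a predicted gene, had -0.88 in CIE 0 h and -0.79 in Ctrl 0 h. Of the 17 oligodendrocyte and precursor markers, 1 fell against late Ctrl, Ugt8a, which makes myelin galactolipids (-0.98, adjusted p = 0.00124), while all 17 were below 0 (median -0.45, and -0.34 for Ctrl 0 h). Their median without CIE replicates 5, 67 and 72 was -0.16 against late Ctrl and 0.11 against Ctrl 0 h, where it was -0.11 with all arrays. The list's mean level ranged over 10.64 to 11.64 in CIE 0 h, 10.87 to 11.48 in Ctrl 0 h and 10.64 to 12.1 in late Ctrl. Serpinb1a, an elastase inhibitor, fell by 1.59 (SE 0.228, adjusted p = 7.48e-06) and the protease gene Klk6 by 1.06 (SE 0.175, adjusted p = 7.52e-05), neither passing against Ctrl 0 h (-0.95 and -0.49). Ctrl 0 h did not pass against late Ctrl in them (-0.64 and -0.57). Klk6 did not pass without CIE replicates 5, 67 and 72 (-0.92, adjusted p = 0.0145), nor did Ugt8a (-0.72, adjusted p = 0.155).

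Antigen presentation genes had some of the largest rises against late Ctrl, none of which passed against Ctrl 0 h. H2-Aa (chr17:34282744-34287823), an MHC class II chain, measured 7.92, 8.75 and 10.73 in CIE 0 h, 6.73, 7.23 and 11.58 in Ctrl 0 h, and 5.47, 6.45 and 7.44 in late Ctrl. Every CIE 0 h array was above every late Ctrl array, whereas in Ctrl 0 h replicate 20 had the highest value of all and the other 5 reached 7.77. CIE 0 h differed by 2.77 from late Ctrl (SE 0.504, adjusted p = 0.000281), or 6.82-fold, and by 1.24 from Ctrl 0 h (95% interval 0.06 to 2.41, adjusted p = 0.269). H2-D1, an MHC class I chain, measured 7.24, 8.58 and 8.93 in CIE 0 h, 6.51, 6.80 and 9.26 in Ctrl 0 h, and 6.09, 6.55 and 7.92 in late Ctrl. All CIE 0 h arrays but replicate 43 were above late Ctrl (change 1.71, SE 0.319, adjusted p = 0.000393), and the highest Ctrl 0 h value was again that of replicate 20. Igtp, an interferon-induced GTPase, changed by 1.96 (SE 0.386, adjusted p = 0.00072), with CIE replicates 67 and 72 highest, at 10.29 and 11.09.

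Of the 11 MHC class I genes, 7 rose against late Ctrl (median 0.97, all 11 above 0), 0 passed against Ctrl 0 h (median 0.41) and 0 passed between Ctrl 0 h and late Ctrl (median 0.40). Without Ctrl 0 h replicate 20, 4 of the 11 rose against Ctrl 0 h (median 0.77) and Ctrl 0 h was near late Ctrl (median 0.038). Then H2-D1 (1.60, adjusted p = 0.00251), H2-K1 (1.30, adjusted p = 0.000713) and the invariant chain Cd74 (1.32, adjusted p = 0.000624) passed against both controls, while H2-Aa (1.97, adjusted p = 0.0136) and Igtp (0.99, adjusted p = 0.209) did not. With CIE replicates 5, 67 and 72 left out instead, 0 of the 11 rose against late Ctrl (median 0.65). H2-Aa was then at 1.92 (adjusted p = 0.103), H2-D1 at 1.49 (adjusted p = 0.0499) and Igtp at 1.45 (adjusted p = 0.117). Among 23 interferon-stimulated genes, 2 rose against late Ctrl, Ifi27 (0.65) and Rtp4 (1.01), and all 23 were above 0 both in CIE 0 h (median 0.43) and in Ctrl 0 h (median 0.38). Against Ctrl 0 h, 12 were above 0 and 11 below (median 0.033, and -0.18 without CIE replicates 5, 67 and 72). The mean level of this list was 8.77 in Ctrl 0 h replicate 20 and 7.34 to 7.66 in the other Ctrl 0 h arrays. It was 7.39 to 8.15 in CIE 0 h, 7.3 to 7.55 in Ctrl 72 h and 7.05 to 7.37 in Ctrl 7 d. The other Ctrl 0 h arrays thus lay within or near the Ctrl 72 h range, and Ctrl 7 d was mostly lower. Neither Ifi27 (adjusted p = 0.425) nor Rtp4 (adjusted p = 0.248) passed without CIE replicates 5, 67 and 72. Of 20 cytokine and NF-kB genes 0 passed (median -0.010). Beside these genes, cortical neuron markers were high in 3 CIE 0 h arrays and myeloid and choroid plexus markers in Ctrl 0 h replicate 20, as given above, and their part in the result was not tested.

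**Figure D4:**
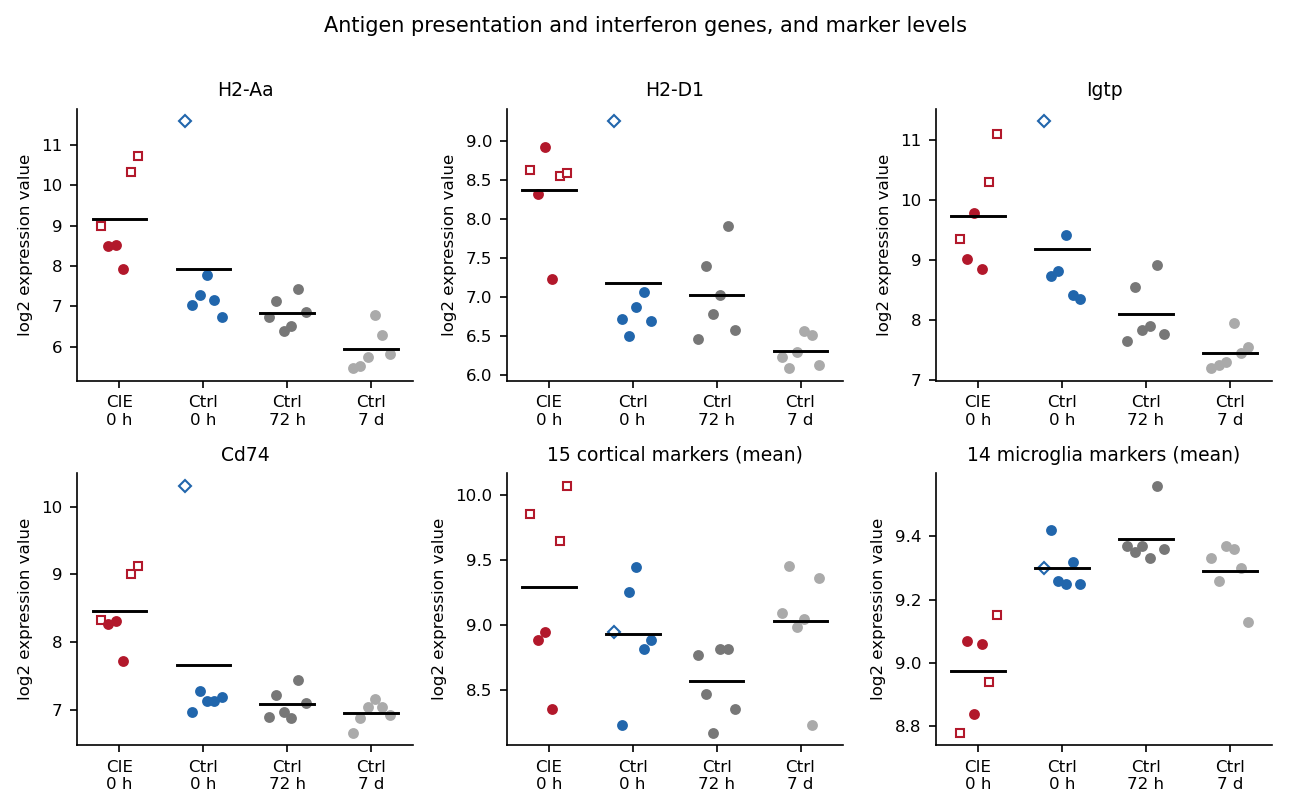
Log2 expression value (y axis) in each array of CIE 0 h, Ctrl 0 h, Ctrl 72 h and Ctrl 7 d for H2-Aa, H2-D1, Igtp and Cd74, and mean log2 value of 15 cortical pyramidal neuron markers and of 14 homeostatic microglia markers. Black bars are means, open squares are CIE replicates 5, 67 and 72 and the open diamond is Ctrl 0 h replicate 20, which had 11.58 in H2-Aa when the other 5 Ctrl 0 h arrays reached 7.77.

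Astrocyte genes moved in both directions against late Ctrl, 3 of 18 markers up and 4 down (median -0.011). Gjb6, the gap junction protein connexin 30, had 9.76, 10.42 and 10.86 in CIE 0 h, 9.62, 9.79 and 9.95 in Ctrl 0 h, and 9.06, 9.29 and 9.71 in late Ctrl. CIE 0 h was wholly above late Ctrl and overlapped with Ctrl 0 h. It rose by 1.07 (SE 0.104, adjusted p = 2.24e-09) against late Ctrl and by 0.56 (adjusted p = 0.0036) against Ctrl 0 h, and Ctrl 0 h was 0.52 above late Ctrl (adjusted p = 0.0105). Etnppl, a phospho-lyase of phosphoethanolamine, changed by 1.50 (adjusted p = 2.66e-07) against late Ctrl and was at 0.60 against Ctrl 0 h (adjusted p = 0.0998). S100b, a calcium-binding protein, fell by 0.57 (adjusted p = 0.000151), and the water channel Aqp4 fell by 0.40. S100b did not pass without CIE replicates 5, 67 and 72 (-0.40, adjusted p = 0.0766). Gjb6 then passed against late Ctrl (1.01) but not against Ctrl 0 h (0.495, adjusted p = 0.0194). In that fit Ctrl 0 h passed against late Ctrl in Gjb6 (0.52, adjusted p = 0.000635). Without CIE replicate 5 alone, Gjb6 did not pass against Ctrl 0 h either (0.46, adjusted p = 0.0226).

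Some vascular markers fell. Of 18 endothelial and pericyte markers, 8 fell and 1 rose against late Ctrl (median -0.18), and 1 fell and 2 rose against Ctrl 0 h. The pericyte genes Pdgfrb (-0.43, adjusted p = 3.67e-05), Rgs5 (-0.42, adjusted p = 8.14e-05) and Vtn (-0.42, adjusted p = 1.57e-05) were among the falls, and Vtn also fell against Ctrl 0 h (-0.46). The lysolipid transporter Mfsd2a of the blood-brain barrier rose by 0.33. Of the 18, 4 fell and 1 rose without CIE replicates 5, 67 and 72. Of 19 antioxidant genes of the Nrf2 pathway, 5 rose against late Ctrl (median 0.14) and 1 of them, the sulfiredoxin Srxn1 (0.59 and 0.36), also against Ctrl 0 h. Ctrl 0 h had a like median against late Ctrl (0.13, with 18 of the 19 above 0 and 1 passing). Between the 0 h groups the median was -0.003.

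Several lists had few or no calls against late Ctrl. Of 20 circadian clock genes 0 passed, of 11 ERK feedback genes 0, of 45 chromatin modifiers 1 (Setd5, 0.34), of 22 heat shock genes 2 lower (Hspa4l and Hsph1), and of 19 p53 and DNA damage genes 3 higher (Trp53inp1, Sesn1 and Pmaip1). Cirbp, a cold-inducible RNA-binding protein, rose by 0.35 (adjusted p = 0.00175) and by 0.43 against Ctrl 0 h. Of 16 genes of ethanol, acetaldehyde and acetate metabolism, a list that includes Fabp7, 1 passed, and it was Fabp7. Of 14 striatal interneuron markers Kit fell (-0.46), of 12 choroid plexus and ependymal markers Kl rose (0.68), and of 15 cortical pyramidal neuron markers and 4 erythroid genes 0 passed. Without CIE replicates 5, 67 and 72, none of Setd5, Hspa4l, Hsph1, Sesn1, Pmaip1, Cirbp, Kit and Kl passed against late Ctrl. Cirbp was then at 0.41 (adjusted p = 0.0117). Against Ctrl 0 h, Cirbp (0.49, adjusted p = 0.00851) and Hspa4l (-0.31, adjusted p = 0.00563) passed in that fit. The call of Pmaip1 against late Ctrl held in 4 of 18 fits with 1 array left out.

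**Figure D5:**
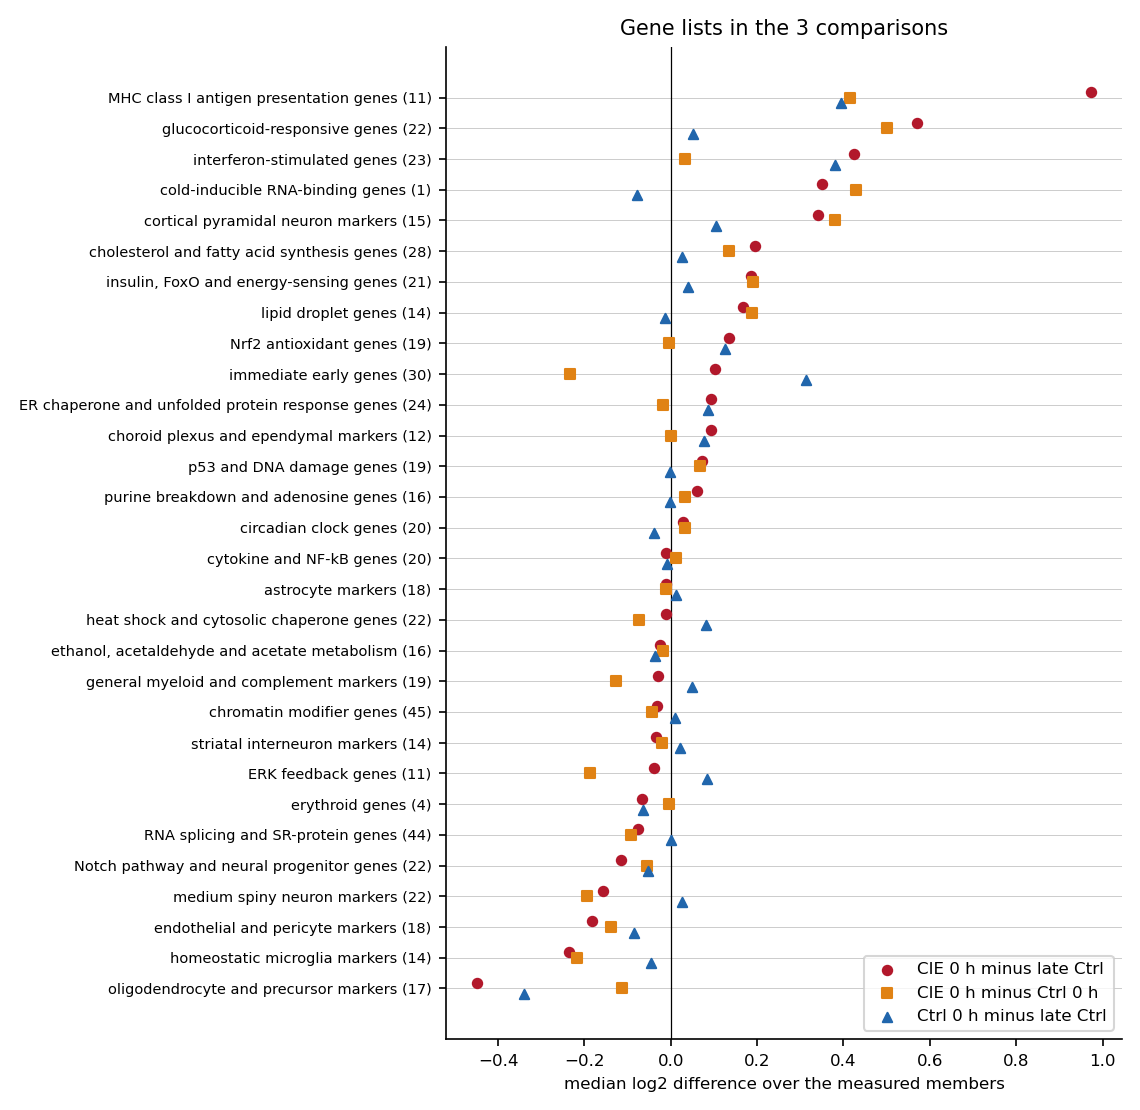
Median log2 change (x axis) of each gene list (rows, each gene at its brightest probeset) for CIE 0 h against late Ctrl, CIE 0 h against Ctrl 0 h and Ctrl 0 h against late Ctrl. Glucocorticoid-responsive genes stand at 0.57 against late Ctrl and 0.50 against Ctrl 0 h, whereas immediate early genes stand at 0.10, -0.23 and 0.31 in the 3 comparisons.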

How the data were processed

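Nucleus accumbens RNA of 45 mice in 8 groups was measured on Affymetrix mouse arrays, 1 array per mouse. The deposited values are log2 expression values that the authors made by RMA and quantile normalization within each batch, joint quantile normalization and ComBat batch correction; no version of RMA is stated in the labels or methods. ComBat can leave the residual spread too small, and its batches are not named in the labels. Array medians lay between 6.942 and 6.965, and the number of arrays, 6 in each group compared here, limits the precision.

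One limma model (version 3.58.1, R 4.3.3) covered all 45037 probesets and 45 arrays, with 8 group means and 37 residual degrees of freedom. CIE 0 h was set against the mean of Ctrl 72 h and Ctrl 7 d and against Ctrl 0 h, and Ctrl 0 h against that mean, with Benjamini-Hochberg adjustment within each comparison and a threshold of 0.01. Of the probesets, 34945 have 1 gene symbol, 932 several and 9160 none; only the first were named, and 34741 of them were matched to the RefSeq table of GRCm38.p6, which gave coordinates and promoters. Each of the 18193 genes was counted in lists at its brightest probeset. Named genes were given at the probeset of smallest p, up to 12 of the largest changes against late Ctrl, 10 per direction of those passing against both controls, 8 per direction of those moved in Ctrl 0 h, 4 passing members per list, and 23 genes that earlier results had named; other list members are examples taken after their values were seen. The comparison, members and 30 gene lists were chosen with earlier results of these data known.

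Arrays sharing exactly equal values (tolerance 2e-08) formed 6 sets of 6 to 8, taken as hybridization sets; Ctrl 0 h replicate 20 was in none, and a fit with the sets as a block gives it no weight. Alternatives were another normalization, median centring, trend and robust settings, array weights, 4 groups alone, brighter or brightest probesets, the sets as a block, Ctrl 72 h or Ctrl 7 d alone, each array left out, and a threshold of 0.05. The fit was tested on simulated data.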

Additional observations from a re-analysis of the deposited data

Results flagged for a closer look

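A sample was flagged where its gap to the nearest of the other 5 in its group relative to the group's range was over Dixon's 95% critical value. Of 484 groups of values tested 33 were flagged, and chance alone flags about 1 in 20. Of these, 11 were high values of Ctrl 0 h replicate 20, given here with the range of the other 5 Ctrl 0 h arrays. It had 11.58 in H2-Aa (6.73 to 7.77), 10.31 in Cd74 (6.98 to 7.29), 9.26 in H2-D1 (6.51 to 7.07), 10.14 in H2-Eb1 (6.11 to 7.43) and 10.58 in H2-K1 (7.72 to 8.39). It also had 8.82 in Gbp6 (4.62 to 5.66), 11.31 in Igtp (8.35 to 9.41), 9.64 in Irgm2 (7.03 to 7.94), 8.52 in Nlrc5 (5.91 to 6.47), 10.05 in Rtp4 (8.04 to 8.47) and 8.86 in Tap1 (6.42 to 6.91). Ctrl 0 h replicate 48 had 11.11 in Manf (10.76 to 10.88).

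In CIE 0 h, replicate 5 was low in Gpr17 (8.07, the others at 8.58 to 8.71) and replicate 43 in H2-D1 (7.24, the others at 8.32 to 8.93) and Zbtb16 (8.5, the others at 9.23 to 9.66). Replicate 72 was low in Mt1 (13.65, the others at 13.71 to 13.73).

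Among Ctrl 7 d arrays, replicate 62 was high in Firre (9.09), H2-Eb1 (6.65), Mt1 (13.48), Nlrc5 (5.96) and Zfand4 (8.61) and low in Fos (8.14), Manf (10.3) and Nr2e1 (6.85). Replicate 80 was high in Egr1 (12.61) and low in the oligodendrocyte-related genes Klk6 (7.25) and Ugt8a (11.24). Replicate 54 was high in Dnajc3 (8.46) and replicate 36 low in Srsf6 (11.15). Among Ctrl 72 h arrays, replicate 52 was low in Cirbp (10.25), replicate 68 low in Dmp1 (5.74), replicate 44 low in Rgs5 (11.18) and replicate 6 high in Pdgfrb (9.71).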

How the results depend on the processing

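The count of probesets passing between CIE 0 h and late Ctrl was 1001 with the 4 groups alone, 1058 with the brightest probeset of each gene, 550 with Ctrl 7 d alone, 3547 at an adjusted p of 0.05, and 925 to 1916 with 1 array left out (925 without CIE replicate 5). It was 448 without CIE replicates 5, 67 and 72, an alternative chosen after seeing the data. Between CIE 0 h and Ctrl 0 h it was 309 with array weights, 332 with 4 groups, 396 with brightest probesets, 299 with the hybridization sets as a block, 234 without the 3 CIE arrays, 1772 at 0.05, and 366 to 892 with 1 array left out (366 without CIE replicate 5, 437 without Ctrl 0 h replicate 30, 465 without CIE replicate 26). Between Ctrl 0 h and late Ctrl it was 24 with weights, 23 with 4 groups, 25 with the block, 22 with Ctrl 72 h alone, 94 at 0.05, and 20 to 52 with 1 array left out (20 without Ctrl 0 h replicate 48, 27 without replicate 78). Between Ctrl 7 d and Ctrl 72 h it was 4 with weights, 2 at 0.05 and 0 to 1 with 1 array left out (1 without Ctrl 72 h replicate 52 or Ctrl 7 d replicate 80).

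Probesets passing against both controls numbered 276 with weights, 267 with 4 groups, 318 with brightest probesets, 238 with the block, 264 with Ctrl 7 d alone, 168 without the 3 CIE arrays, 1344 at 0.05, and 268 to 707 with 1 array left out (268 without CIE replicate 5, 348 without CIE replicate 26). Those called as coming from Ctrl 0 h numbered 2 with weights, 3 with the block or Ctrl 72 h alone, and 18 at 0.05. With 1 array left out they numbered 2 to 9 (2 without Ctrl 0 h replicate 48, 3 without replicate 30 or 78).

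The values whose signs turned did not pass. Against late Ctrl, Fos was -0.024 without CIE replicate 72 (up to 0.216 without replicate 43), and Fosb was 0.022 with weights, 0.016 without Ctrl 72 h replicate 34, 0.05 without CIE replicate 72 (lowest -0.105, without replicate 17) and 0.123 without the 3 CIE arrays, which also gave Fosl2 -0.018 and Nr4a1 0.067. Against Ctrl 0 h, leaving out those 3 gave Gm11627 0.134, Ilvbl 0.02, Mt2 -0.004, Nrarp 0.206, Rida 0.012, Timp3 0.017, Gbp6 -0.234, Irgm2 -0.079 and Rtp4 -0.01, and medians of 0.108 for oligodendrocyte markers and -0.177 for interferon-stimulated genes. Single arrays left out gave Mt2 -0.003 (CIE replicate 67), Nrarp 0.015 (CIE replicate 5) and 0.009 (CIE replicate 72), and Sdf2l1 0.047 (Ctrl 0 h replicate 48) and 0.004 (CIE replicate 26). The opposite ends of these ranges were 0.045 for Mt2, -0.161 for Nrarp and -0.092 for Sdf2l1. Changes near 0 between Ctrl 0 h and late Ctrl, such as that of Txnip (-0.034 with the block), also turned. The cause was not tested. Of the other values recomputed under all alternatives, 5030 kept their side of the threshold or their value and 434 lost a call.

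No paired analysis was possible because each mouse has a replicate number of its own; the hybridization sets, which match arrays across groups, served as a block instead. Equal values, not labels, define the hybridization sets, and ethanol and time since the chamber cannot be told apart against late Ctrl. The effect of ComBat on the adjusted p-values was not tested.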
